A study of Mus musculus with 10 samples.

Results

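The 10 genes described here are adipokine and adipocyte metabolism genes, taken by name from the 54532 genes counted in each sample: Lep, Adipoq, Cfd, Retn, Fabp4, Lpl, Pck1, Aqp7, Adrb3 and Ucp1. They were chosen for their known roles and not for their values, although earlier results of these data were known. RNA came from the cochlea of mtKeima mice, which carry a pH-dependent fluorescent protein in their mitochondria, and all mice were 12 months old. The 5 mice of the NR group were given nicotinamide riboside (NR), a precursor of NAD+, to drink for 10 months from the age of 2 months, dissolved in their water at 7 mg/ml, or 24 mM, and the 5 mice of the Vehicle group drank regular water and were not treated. One library was made from each mouse, and the comparison asks how the cochlear transcriptome differed with long-term NR.

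White adipocytes store triglyceride in lipid droplets and release fatty acids and glycerol when adrenergic receptors are stimulated. They also secrete hormones and other proteins, the adipokines, that act on appetite, insulin response and the complement system. Brown adipocytes, in addition, burn fatty acids to make heat through uncoupling protein 1. Much of the adipocyte programme, including Adipoq, Fabp4, Lpl, Pck1 and Aqp7, is known to be driven by the nuclear receptor PPARγ, which binds DNA with RXR at a direct repeat of AGGTCA with 1 base between the copies.

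Before the results, some facts of the libraries bear on the values. Between 17060379 and 22931581 reads were counted per NR mouse and between 20004667 and 24419230 per Vehicle mouse, so that 3 reads corresponded to 0.121 to 0.174 CPM (reads of a gene scaled to a fixed library size). Markers of the cochlea were present in every library, with 8 hair cell genes (Pvalb, which muscle also expresses, left out) summing to 130 to 242 CPM in NR mice and 140 to 400 CPM in Vehicle mice. The labels call the mice female and the methods of the study call them male. In all 10 libraries Xist was at 0.0882 to 0.405 CPM and the Y-linked genes Ddx3y, Eif2s3y, Kdm5d and Uty summed to 179 to 210 CPM, which goes against the female label in both groups alike. The whole cochlea was sampled, and a change in the number of cells of a type cannot be told apart from a change in RNA per cell.

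Most of the adipocyte genes were higher in the NR cochlea. A filter on low counts (filterByExpr of edgeR) kept 8 of the 10 genes. The study counted changed genes at an unadjusted p of 0.05, and used an adjusted p for its table of top genes. At an unadjusted p of 0.05 in edgeR's quasi-likelihood test, 7 of the 8 rose with NR and 0 fell. Of all 18329 tested genes, 4.83% were called higher in this way and 4.88% lower. The Wald test of DESeq2 also called 7 of the 8 at the unadjusted threshold, against 5.41% of the genes it tested. After Benjamini-Hochberg adjustment over all tested genes, edgeR called 0 of the 8 at 0.05, as it did for 0% of all tested genes, while DESeq2 called 3, Cfd, Pck1 and Adrb3, against 0.279% of all genes in that fit. The median log2 fold change (NR over Vehicle) of the 8 was 1.84, beside -0.01 for all tested genes, and 6 of the 8 had a log2 fold change of at least 1, beside 1.2% of tested genes. The filter keeps a gene that is abundant enough in 1 group, so these counts cover the 8 genes it kept and not all 10. Retn, Pck1, Aqp7 and Adrb3 were kept only through the NR group, with lowest Vehicle levels of 0, 0.353, 0.243 and 0.283 CPM. The calls, the median and the counts above include these genes and so lean on that selection. Lep and Ucp1 were left out by it and were read from a fit that kept each of the 33224 genes with any read, in which 4.26% of genes were called higher at the unadjusted threshold. Summed over all 10 genes, the level was 163, 253, 164, 94.3 and 110 CPM in NR replicates 1 to 5 and 97.9, 96.0, 35.4, 35.1 and 45.5 CPM in Vehicle replicates 1 to 5. NR replicate 4 thus lay within the Vehicle range for the sum, and the other NR mice lay above it. Fabp4 and Lpl, which other cell types also make, hold most of this sum. Their means were 64.3 and 46.4 CPM in NR mice and 25.4 and 23.4 CPM in Vehicle mice.

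**Figure D1:**
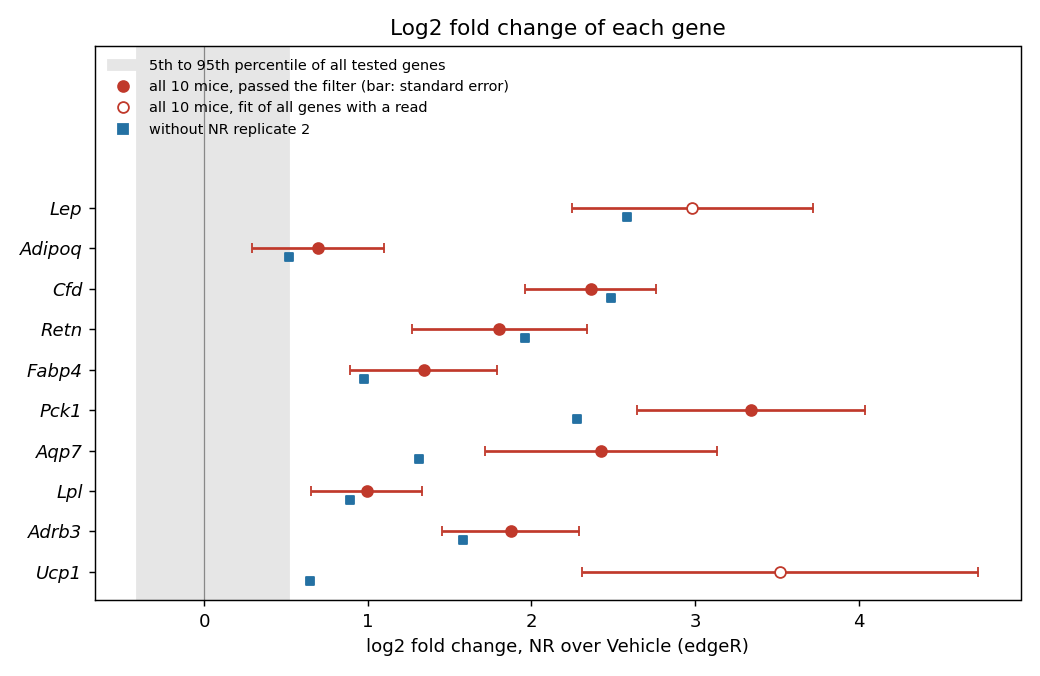
Log2 fold change (NR over Vehicle, x axis) of each of the 10 genes with its standard error, with the value without NR replicate 2 as a square and the range from the 5th to the 95th percentile of all tested genes, -0.41 to 0.52, in grey. All 10 values lie to the right of 0, and those of Pck1, Aqp7 and Ucp1 move most when NR replicate 2 is left out.

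Promoter sequences are shown for 4 of the genes because Lep, Cfd and Pck1 are the genes whose groups did not overlap and Aqp7 holds the closest match to the PPARγ-RXR element. C/EBP factors, whose element was also searched, are the other main drivers of fat cell genes. RefSeq (GRCm38.p6, the mm10 build of the counts) gave promoter windows for 7 of the 10 genes, and Fabp4, Lpl and Adrb3 had none in the table used. Each line gives the 250 bases before the RefSeq start, 5′ to 3′ on the strand of the gene, with the matched element in capitals.
Lep, chr6:29059971-29060220, + strand: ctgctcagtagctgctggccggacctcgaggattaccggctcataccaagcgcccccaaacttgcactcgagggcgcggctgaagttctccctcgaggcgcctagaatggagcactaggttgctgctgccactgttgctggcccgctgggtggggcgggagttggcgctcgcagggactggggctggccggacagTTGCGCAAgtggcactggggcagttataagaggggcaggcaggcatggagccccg
Cfd, chr10:79890603-79890852, + strand: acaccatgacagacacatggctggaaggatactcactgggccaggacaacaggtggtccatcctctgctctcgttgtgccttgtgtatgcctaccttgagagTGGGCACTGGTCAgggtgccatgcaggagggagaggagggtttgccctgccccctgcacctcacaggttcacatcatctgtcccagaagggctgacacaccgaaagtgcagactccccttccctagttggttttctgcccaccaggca
Pck1, chr2:173152823-173153072, + strand: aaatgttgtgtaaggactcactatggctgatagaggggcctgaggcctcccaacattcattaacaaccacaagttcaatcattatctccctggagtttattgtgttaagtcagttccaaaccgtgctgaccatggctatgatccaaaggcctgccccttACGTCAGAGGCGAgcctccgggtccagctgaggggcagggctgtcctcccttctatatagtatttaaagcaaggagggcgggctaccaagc
Aqp7, chr4:41048137-41048386, - strand: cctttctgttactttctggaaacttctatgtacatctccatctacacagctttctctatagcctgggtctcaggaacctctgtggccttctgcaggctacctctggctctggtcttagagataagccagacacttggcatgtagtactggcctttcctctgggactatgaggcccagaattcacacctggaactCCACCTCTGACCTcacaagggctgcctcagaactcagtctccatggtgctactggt

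In Lep the capitals are TTGCGCAA, an exact match to TTGCNNAA (C/EBP) at -55 from the start. In Cfd and Pck1 they are matches to AGGTCANAGGTCA (direct repeat 1) with 3 mismatches outside the spacer, TGGGCACTGGTCA at -148 and ACGTCAGAGGCGA at -91. Aqp7 has 2 RefSeq starts, and the window of the upstream one is shown. Its capitals are CCACCTCTGACCT at -56, a match with 2 mismatches on the opposite strand, of which the last 6 bases are an exact AGGTCA half-site read from the other strand and overlap the longer match. From the other start the same letters lie at -230, and a second repeat with 2 mismatches, TGACCTCTCCCCT, lies at -101. Both strands of each window, which also takes in the bases just after the start, were searched, and 24.6% of 32851 windows in the RefSeq table held a direct repeat with at most 3 mismatches, 3.86% one with at most 2, and 10.8% the C/EBP letters. Retn and Ucp1 also had repeats with 3 mismatches, so that 5 of the 7 genes with a window had a repeat with at most 3 mismatches, and only Aqp7 among the 7 had one with 2. An exact AGGTCA was found in Aqp7 and Ucp1 (16.3% of windows), CCAAT in Adipoq alone (37.4% of windows) and TATAAA in 0 of the 7 (13.6% of windows). These matches describe letters in the windows, and no binding was measured.

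Of the 4 adipokine genes, Lep, Cfd and Retn rose at the unadjusted threshold and Adipoq did not pass it. Lep (chr6:29060220-29073877, + strand) encodes leptin, the hormone by which fat signals energy stores to the brain. Leptin reads numbered 7, 41, 26, 7 and 21 in NR replicates 1 to 5 and 6, 0, 0, 4 and 3 in Vehicle replicates 1 to 5. In CPM these were 0.337, 1.83, 1.13, 0.306 and 1.22 against 0.298, 0, 0, 0.176 and 0.139, where a count of 0 allows up to 0.135 CPM in Vehicle replicate 2 and 0.121 CPM in Vehicle replicate 3, counting error only. Every NR mouse was above every Vehicle mouse, although the lowest NR mouse, replicate 4, and the highest Vehicle mouse, replicate 1, were separated by 1 read. Its log2 fold change was 2.98 (SE 0.73, adjusted p = 0.484) in the edgeR fit of all genes with a read.

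Adipoq (chr16:23146536-23158028, + strand) encodes adiponectin, the most abundant adipokine in blood, which raises fatty acid oxidation and insulin sensitivity. Its level was 9.01, 17.1, 14.2, 7.60 and 10.1 CPM in NR mice and 12.2, 11, 2.43, 4.10 and 6.18 CPM in Vehicle mice. The groups overlapped, since Vehicle replicates 1 and 2 were higher than NR replicates 1, 4 and 5. Its log2 fold change of 0.70 (SE 0.41, edgeR adjusted p = 0.601) did not pass the unadjusted threshold. Without Vehicle replicate 1 this value was 0.98 and passed it. Every other fit that left out 1 mouse gave 0.485 to 0.92 and did not pass.

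Cfd (chr10:79890853-79892655, + strand) encodes complement factor D, or adipsin, a serine protease of the alternative complement pathway that is secreted by fat. Cfd stood at 27.5, 13.2, 26.1, 16.1 and 15.2 CPM in NR mice and at 5.51, 6.47, 1.98, 1.41 and 3.76 CPM in Vehicle mice. Every NR mouse lay above every Vehicle mouse, and the lowest NR value was in replicate 2. The mean was 19.6 ± 6.66 CPM with NR and 3.83 ± 2.18 CPM without (SD, n = 5), a ratio of 5.13. On the log2 scale the fold change was 2.36 (SE 0.40), and Cfd shared the smallest adjusted p of all tested genes in edgeR, adjusted p = 0.224. DESeq2 gave an adjusted p = 3e-06.

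Retn (chr8:3655770-3660110, + strand) encodes resistin, an adipokine that opposes insulin in mice. Retn reached 1.40, 0.716, 1.25, 1.31 and 1.62 CPM in NR mice and 0.794, 0.404, 0.283, 0 and 0.325 CPM in Vehicle mice, where the absence of reads in Vehicle replicate 4 allows up to 0.132 CPM. NR replicate 2 was below Vehicle replicate 1, and the other NR mice were above all Vehicle mice. Retn had a log2 fold change of 1.80 (SE 0.54, edgeR adjusted p = 0.423).

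**Figure D2:**
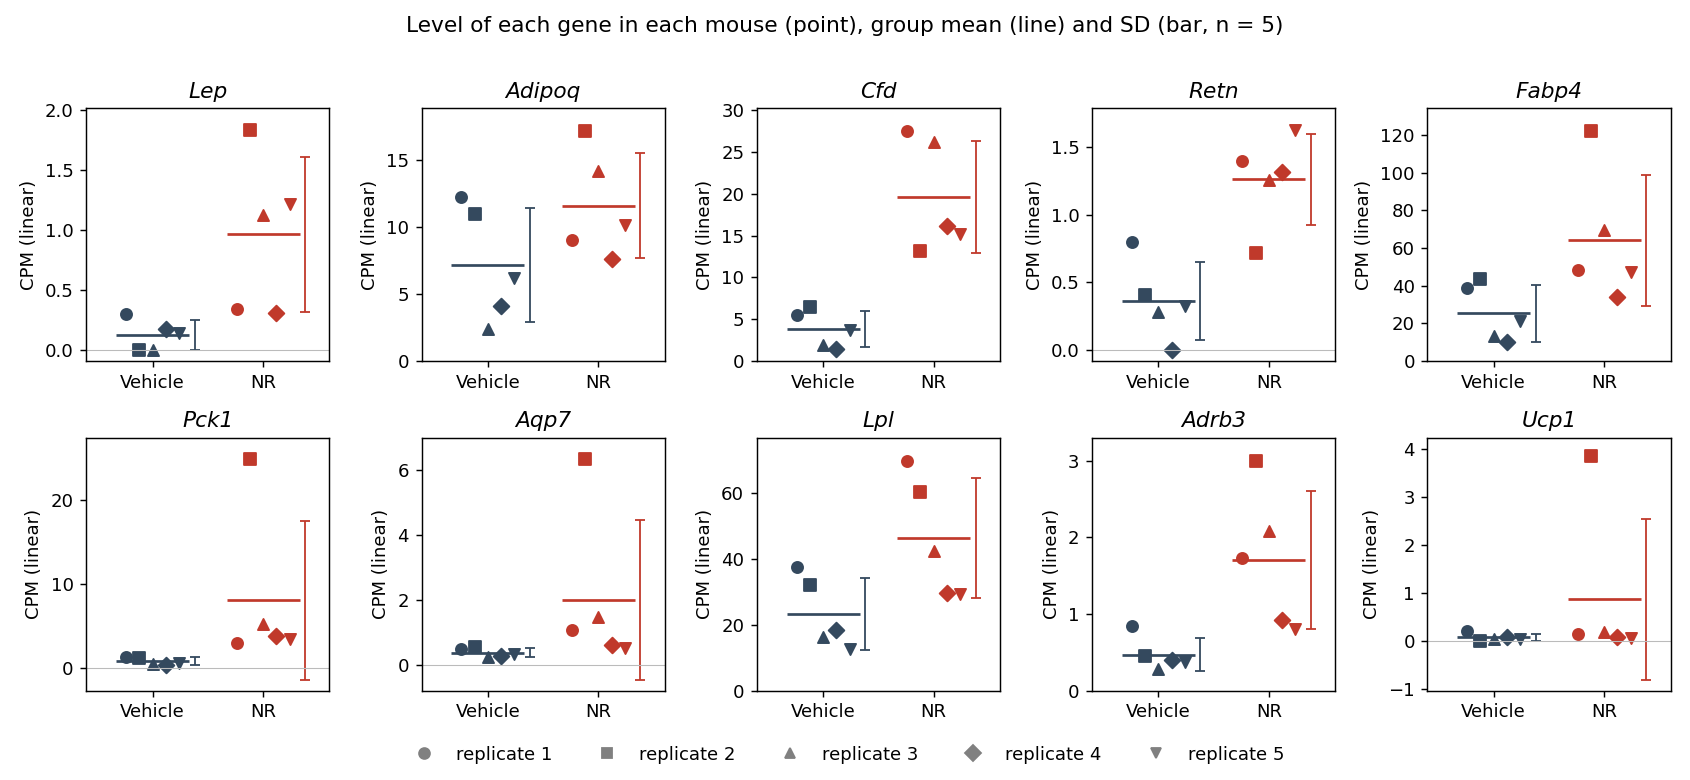
Level of each of the 10 genes in CPM (linear y axis, a separate range for each gene) in the Vehicle and NR mice, with 1 point per mouse, the symbol giving the replicate number, the line the mean and the bar the SD over 5 mice. Lep, Cfd and Pck1 show no overlap between groups, and in Pck1, Aqp7 and Ucp1 the square of NR replicate 2 lies far above the other NR mice.

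Both genes of fatty acid supply rose at the unadjusted threshold. Fabp4 (chr3:10204088-10208576, - strand) encodes the fatty acid carrier of the adipocyte cytoplasm, which capillary endothelium and macrophages also make. Fabp4 was counted at 48.6, 122, 69.8, 33.8 and 47.1 CPM in NR mice and at 38.7, 43.7, 13.5, 10.0 and 21.2 CPM in Vehicle mice. NR replicate 4 was below Vehicle replicates 1 and 2, and the other 4 NR mice were above all Vehicle mice. Fabp4 had a log2 fold change of 1.34 (SE 0.45, edgeR adjusted p = 0.437).

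Lpl (chr8:68880491-68907448, + strand) encodes lipoprotein lipase, which frees fatty acids from circulating triglyceride at the capillary wall and is also made by muscle and macrophages. Lpl values were 69.9, 60.4, 42.6, 29.8 and 29.5 CPM in NR mice and 37.5, 32.2, 16.2, 18.3 and 12.5 CPM in Vehicle mice. NR replicates 4 and 5 fell within the Vehicle range, and the other 3 lay above it. For Lpl the log2 fold change was 0.99 (SE 0.34, edgeR adjusted p = 0.445).

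Both genes of glycerol handling rose at the unadjusted threshold. Pck1 (chr2:173153048-173159273, + strand) encodes the cytosolic phosphoenolpyruvate carboxykinase, which makes glycerol 3-phosphate for triglyceride in fat and glucose in liver and kidney. Pck1 measured 2.94, 24.9, 5.24, 3.76 and 3.47 CPM in NR mice and 1.34, 1.21, 0.486, 0.353 and 0.604 CPM in Vehicle mice. The groups did not overlap, and NR replicate 2 was 6.47 times the mean of the other NR mice. Pck1 had a log2 fold change of 3.34 (SE 0.70, edgeR adjusted p = 0.37), and without NR replicate 2 it was 2.28 (adjusted p = 0.18) and still passed the unadjusted threshold. DESeq2 with all mice gave an adjusted p = 1.18e-04.

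Aqp7 (chr4:41033074-41048139, - strand) encodes the channel through which glycerol leaves the adipocyte. Its reads came to 1.06, 6.35, 1.47, 0.611 and 0.521 CPM in NR mice and to 0.496, 0.539, 0.243, 0.265 and 0.325 CPM in Vehicle mice. NR replicate 5 was below Vehicle replicate 2, and NR replicate 2 was 6.94 times the mean of the other NR mice. Aqp7 had a log2 fold change of 2.43 (SE 0.71, edgeR adjusted p = 0.423) with all mice and of 1.31 (adjusted p = 0.234) without NR replicate 2, and passed the unadjusted threshold in both fits.

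The pair of genes of the adrenergic and heat response gave unlike patterns over the mice. Adrb3 (chr8:27225776-27250616, - strand) encodes the β3-adrenergic receptor, through which noradrenaline starts lipolysis in rodent fat. Adrb3 gave 1.74, 3.0, 2.08, 0.917 and 0.810 CPM in NR mice and 0.844, 0.449, 0.283, 0.397 and 0.372 CPM in Vehicle mice. NR replicate 5 was just below Vehicle replicate 1, and the other 4 NR mice were above all Vehicle mice. Adrb3 rose at the unadjusted threshold with a log2 fold change of 1.87 (SE 0.42, edgeR adjusted p = 0.37), and DESeq2 gave an adjusted p = 0.0183. The antisense gene Gm45470 overlaps 24.9% of the exonic bases of Adrb3. Reads within the shared bases could not be assigned to either gene, because the counting took no account of strand. Gm45470 itself was at 0 to 0.433 CPM, and the exons of the other 9 genes overlapped no other gene.

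Ucp1 (chr8:83290352-83298452, + strand), the uncoupling protein that makes heat in brown and beige fat, was close to 0 in 9 of the 10 mice. Ucp1 reads numbered 3, 86, 4, 2 and 1 in NR mice and 4, 0, 1, 2 and 1 in Vehicle mice, or 0.145, 3.85, 0.173, 0.0873 and 0.0579 CPM against 0.199, 0, 0.0405, 0.0882 and 0.0464 CPM. NR replicate 2 alone stood apart, at 33.3 times the mean of the other NR mice. In the edgeR fit of all genes with a read the log2 fold change was 3.52 (SE 1.21, adjusted p = 0.587), which passed the unadjusted threshold. Without NR replicate 2 it was 0.65 (adjusted p = 0.747) and did not, so the call rested on that mouse.

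Groups without overlap were counted over the same table. Of the 8 genes that passed the filter, Cfd and Pck1 had every NR mouse above every Vehicle mouse, as did 0.769% of all tested genes. Lep did so outside the filter, where the share over all genes was not counted. The reverse order held for 0 of the 8 and for 0.878% of all tested genes. Pck1 was kept by the filter only through the NR group, where it was high, so setting it beside these shares leans on that selection. The same holds for Retn, Aqp7 and Adrb3 below. In another 4 genes, Retn, Fabp4, Aqp7 and Adrb3, 4 of the 5 NR mice were above all Vehicle mice. The share of all tested genes with that order was not counted, so it only describes these genes. In each of these the NR mouse that was not above was replicate 2, 4 or 5.

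The mouse with the highest level differed between genes. NR replicate 2 was the highest of all 10 mice for 7 genes, Lep, Adipoq, Fabp4, Pck1, Aqp7, Adrb3 and Ucp1, but was the lowest NR mouse for Cfd and Retn. NR replicate 1 was highest for Cfd and Lpl, and NR replicate 5 for Retn. In the Vehicle group, replicate 1 was highest for 7 genes and replicate 2 for the other 3, and replicates 3 and 4 were each the lowest of all mice for 4 genes, ties included. The coefficient of variation over the NR mice ran from 26.6% for Retn to 123% for Aqp7 among the tested genes, and was 194% for Ucp1. In Vehicle mice it ran from 36.4% for Aqp7 to 79.2% for Retn among the tested genes. Without NR replicate 2, 7 of the 8 tested genes still passed the unadjusted threshold in edgeR, and the ratios of means were 6.08 for Lep, 5.55 for Cfd, 4.82 for Pck1, 3.86 for Retn, 2.95 for Adrb3, 2.45 for Aqp7, 1.96 for Fabp4, 1.84 for Lpl, 1.55 for Ucp1 and 1.42 for Adipoq.

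**Figure D3:**
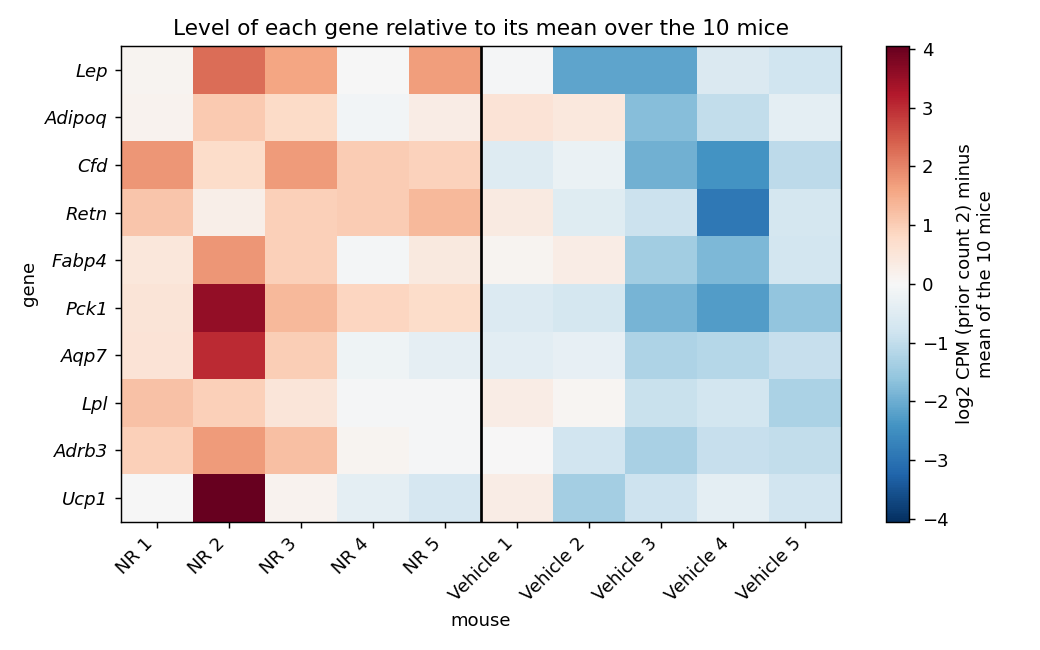
Log2 CPM (prior count 2) of each gene (rows) in each mouse (columns) minus the mean of that gene over the 10 mice, with the NR mice to the left of the black line. NR replicate 2 is darkest for Pck1, Aqp7 and Ucp1, and Vehicle replicates 3 and 4 hold the lowest values of Adipoq, Cfd, Fabp4 and Pck1.

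Levels were also compared per kilobase of exon. The exonic length used for Fabp4 spans the whole gene, so its level per kilobase is understated and its place in the order, including whether it lies above or below Cfd, is not settled. In Vehicle mice Fabp4, Adipoq and Cfd had medians of 4.72, 4.47 and 4.08 CPM per kilobase, followed by Lpl at 1.75, and the ranges of all 4 overlapped. In NR mice the medians were 17.5 CPM per kilobase for Cfd, 10.8 for Fabp4, 7.33 for Adipoq and 4.06 for Lpl, with ranges that overlapped between neighbours. The remaining genes had medians of 0.0884 to 1.09 CPM per kilobase in NR mice and of 0.0284 to 0.206 CPM per kilobase in Vehicle mice. Pck1 and Retn, Retn and Adrb3, Adrb3 and Aqp7, and Lep and Ucp1 had ranges that overlapped in both groups.

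The other 7 genes that passed the filter were also set against Adipoq, a widely used adipocyte marker, in the same mouse. This choice was made after the values were seen and is given without a test. Which cells made Adipoq here was not measured, so the ratios are not levels per adipocyte. Lep and Ucp1, with few reads, were left out. Pck1 reads per Adipoq read were 0.326, 1.45, 0.37, 0.494 and 0.343 in NR mice and 0.110, 0.110, 0.2, 0.0860 and 0.0977 in Vehicle mice, with no overlap. Cfd reads per Adipoq read had a median of 1.85 in NR mice and 0.588 in Vehicle mice, and NR replicate 2, at 0.770, lay within the Vehicle range. Adrb3 had medians of 0.147 and 0.0691, Retn 0.155 and 0.0526, and Aqp7 0.104 and 0.0526. The medians of Fabp4 (4.93 and 3.43) and Lpl (3.53 and 3.07) were closer, and 1 NR mouse lay above all Vehicle mice in each. The ratios of Pck1, Cfd, Adrb3, Retn and Aqp7 to Adipoq thus had medians 1.98 to 3.37 times higher with NR, and those of Fabp4 and Lpl 1.44 and 1.15 times. Adipoq had the smallest log2 fold change of the tested genes, 0.70, so the choice of this gene made higher ratios likely. Ratios to the adipocyte genes Plin1 or Cidec, which rose more (log2 fold change 3.04 each), were not taken.

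**Figure D4:**
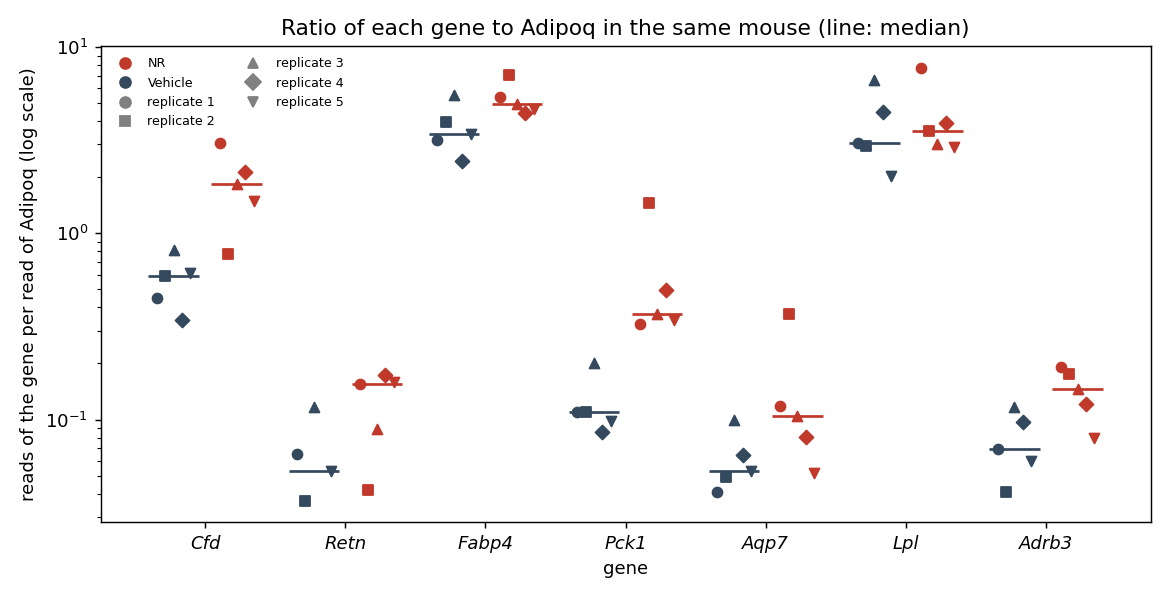
Reads of each gene per read of Adipoq in the same mouse (log y axis) for the NR and Vehicle mice, with the median as a line; Vehicle replicate 4 had 0 Retn reads and is not drawn there. All NR mice are above all Vehicle mice for Pck1, and the groups overlap for the other 6 genes.

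Other genes of the adipocyte were taken from lists written by hand for known function. Counts of called genes in each list stand beside 4.83% called higher and 4.88% called lower of all tested genes. Of 20 genes of lipid storage and lipolysis, all tested, 6 rose and 0 fell at an unadjusted p of 0.05, with a median log2 fold change of 0.21. Those that changed most coat or enlarge the lipid droplet. Plin1, perilipin 1 of the droplet surface, was at 7.52, 27.3, 9.39, 5.46 and 6.19 CPM in NR mice and at 2.33, 1.08, 1.09, 0.705 and 1.58 CPM in Vehicle mice, with a log2 fold change of 3.04 (SE 0.51, edgeR adjusted p = 0.224). Cidec, which fuses droplets, was at 6.02, 13.2, 6.75, 3.76 and 5.38 CPM against 1.79, 0.404, 0.688, 0.485 and 0.929 CPM, with a log2 fold change of 3.04 (SE 0.45, adjusted p = 0.224). For both genes every NR mouse was above every Vehicle mouse. Cidea, a relative of Cidec that is also used in brown fat, had a log2 fold change of 1.75 (SE 0.56, adjusted p = 0.434). The most counted gene of the list, the monoglyceride lipase gene Mgll, had a log2 fold change of -0.004 (SE 0.11, adjusted p = 0.994), at 142 ± 14.4 CPM in NR mice and 143 ± 21.6 CPM in Vehicle mice (SD, n = 5).

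Of 15 other genes of adipocyte identity, 14 were tested, 3 rose and 1 fell at the unadjusted threshold, and the median log2 fold change was 0.39. Cyp2e1, a cytochrome P450 also known from liver, rose with a log2 fold change of 1.69 (SE 0.29, edgeR adjusted p = 0.224) and no overlap of the groups. Sncg, γ-synuclein, which neurons also express, rose by 0.90 (SE 0.32) and Aoc3, a vascular and fat amine oxidase, by 0.54 (SE 0.15) on the log2 scale. The gene that fell was Itih5, with a log2 fold change of -0.27. Car3, carbonic anhydrase 3, was the most counted of the list at 364 ± 111 CPM with NR and 431 ± 130 CPM without (SD, n = 5), and its log2 fold change of -0.24 did not pass (edgeR adjusted p = 0.747).

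Among 11 transcription factors of the adipocyte, 1 rose and 1 fell, and the median log2 fold change was -0.02. Pparg, which encodes PPARγ, was at 3.85, 5.46, 5.11, 2.62 and 3.99 CPM in NR mice and at 2.73, 2.29, 1.42, 2.25 and 2.04 CPM in Vehicle mice. Only NR replicate 4 overlapped the Vehicle range, and the log2 fold change was 0.97 (SE 0.23, edgeR adjusted p = 0.407). Srebf1, a regulator of lipid synthesis in many tissues and the most counted of this list, had a log2 fold change of -0.31 (SE 0.12, adjusted p = 0.466). Over the lists of lipid storage, identity and transcription factors together, 34 of 45 tested genes had a log2 fold change above 0, as did 47.1% of all tested genes. At the unadjusted threshold 10 of the 45 rose and 2 fell, beside 4.83% and 4.88% of all tested genes. A log2 fold change of at least 1 was found in 6 of the 45, beside 1.2% of all tested genes.

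Of 19 listed receptors and partners of the 10 genes, 16 were tested, 2 rose, 0 fell and the median log2 fold change was 0.02. Gpihbp1, the endothelial anchor of lipoprotein lipase, had a log2 fold change of 0.86 (SE 0.32, edgeR adjusted p = 0.464), and the β1-adrenergic receptor gene Adrb1 one of 0.49 (SE 0.16, adjusted p = 0.436) with no overlap of the groups. The adiponectin receptor gene Adipor2, the most counted of the list, had a log2 fold change of -0.22 (SE 0.17, adjusted p = 0.684). Of 14 brown and beige fat genes, 12 were tested and 1, Cidea, rose, with a median log2 fold change of 0.00, while the most counted, Fabp3, had a log2 fold change of 0.14 (adjusted p = 0.685). In the family of fatty acid binding proteins, 4 of 10 genes were tested, of which Fabp4 rose, and Fabp6 and Fabp9 had 0 reads in all mice.

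The genes most like the 10 were found by Pearson correlation of log2 CPM with the mean of the 8 tested genes, over 10 mice after the mean of each group was subtracted. The first 4 were Gm37254 (r = 0.956), Cbx3 (0.951), Gm28229 (0.947) and Ube2d2a (0.942), and their log2 fold changes were 0.24, -0.11, -0.25 and 0.03. In each, NR replicate 2 was the highest NR mouse. By the same measure the genes correlated with the mean they were part of from 0.466 for Retn and 0.667 for Cfd to 0.975 for Fabp4. Plin1, Pparg and Cidec had 0.795, 0.71 and 0.638. These values describe 10 libraries that share their group means, and carry no test.

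Marker lists of other cell types were read beside these results, and their part in them was not tested. Here too the counts stand beside 4.83% called higher and 4.88% called lower of all tested genes. Of the lists, skeletal muscle had the median log2 fold change farthest from 0: 10 of 13 tested genes rose, 0 fell and the median was 2.92, led by Myh1 (4.77), Ckm (4.75) and Acta1 (4.62). The most counted of the list, Pvalb, which cochlear neurons and hair cells also express, had a log2 fold change of 0.23. Without Pvalb, the other 14 muscle markers summed to 17.5, 37.4, 1076, 107 and 893 CPM in NR replicates 1 to 5 and to 103, 21.1, 17.9, 19.7 and 16.5 CPM in Vehicle replicates 1 to 5. NR replicates 3 and 5 were thus far above the rest, while NR replicate 2, the highest mouse for 7 of the adipocyte genes, was not. Of 9 bone genes 1 rose, Col1a1, with a log2 fold change of 1.74, while 5 of the 9 were above 0 and the median was 0.004. Col1a1 was also the most counted, at a mean of 818.5 CPM with NR and 244.5 CPM without. The summed level, which includes Col1a1, was 470 to 1914 CPM in NR and 263 to 784 CPM in Vehicle mice. Of 10 genes of neutrophils and marrow myeloid cells 1 rose, Retnlg (log2 fold change 0.75), and the most counted was S100a9 (0.46, edgeR adjusted p = 0.672). Of the 10, 9 had a log2 fold change above 0, and the median was 0.43. Their sums were 1433 to 4802 CPM in NR mice and 1447 to 5763 CPM in Vehicle mice. The gene not above 0, Ltf, was at 785.1 ± 957.9 CPM in Vehicle mice (SD, n = 5). NR replicate 2 had the lowest NR sum for bone, for neutrophils and for macrophages.

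Adipose tissue also holds stromal, endothelial and immune cells, whose markers were read in the same way. Of 11 genes of adipose stroma and preadipocytes 0 rose and 0 fell, with sums of 1023 to 1260 CPM in NR mice and 894 to 1421 CPM in Vehicle mice, and Cd24a was the most counted. Of 12 genes of capillary endothelium 3 rose, Pecam1, Egfl7 and Tie1, by 0.30, 0.28 and 0.27 on the log2 scale, and Vwf was the most counted at -0.02. Of 11 macrophage genes 0 rose and 0 fell at the unadjusted threshold, although all 11 had a log2 fold change above 0 (median 0.20), with sums of 255 to 729 CPM in NR mice and 337 to 461 CPM in Vehicle mice, and C1qa led them. Of 8 B lymphocyte genes, led by Ebf1, and 8 erythroid genes, led by Hbb-bs, 0 rose and 0 fell. Erythroid sums were 7418 to 13090 CPM and 4135 to 17960 CPM.

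Among markers of the cochlea, those of supporting cells and of the stria vascularis held genes that fell. Of 8 genes of supporting cells and the tectorial membrane 7 fell, with a median log2 fold change of -0.81, among them Tectb (-1.43), Tecta (-1.24) and Otoa (-1.0), and Gjb2 was the most counted (-0.52). Their sum was 880 to 1279 CPM in NR mice and 1086, 1145, 2135, 2252 and 1142 CPM in Vehicle replicates 1 to 5, so that Vehicle replicates 3 and 4, which had the lowest sums of the 10 adipocyte genes, had the highest sums of these markers. Of 9 genes of the stria vascularis and fibrocytes 5 fell, including Dct (-0.96), Otos (-0.73) and Kcne1 (-0.67), and the sums were 3721 to 5786 CPM with NR and 4397 to 7377 CPM without, with Coch the most counted. Of 9 hair cell genes 0 rose and 0 fell. Their median log2 fold change was -0.41, and Pvalb, the most counted, was the 1 gene of them above 0. Of 11 genes of spiral ganglion neurons and Schwann cells 1 rose, Tubb3 (0.49), with Mbp the most counted.

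**Figure D5:**
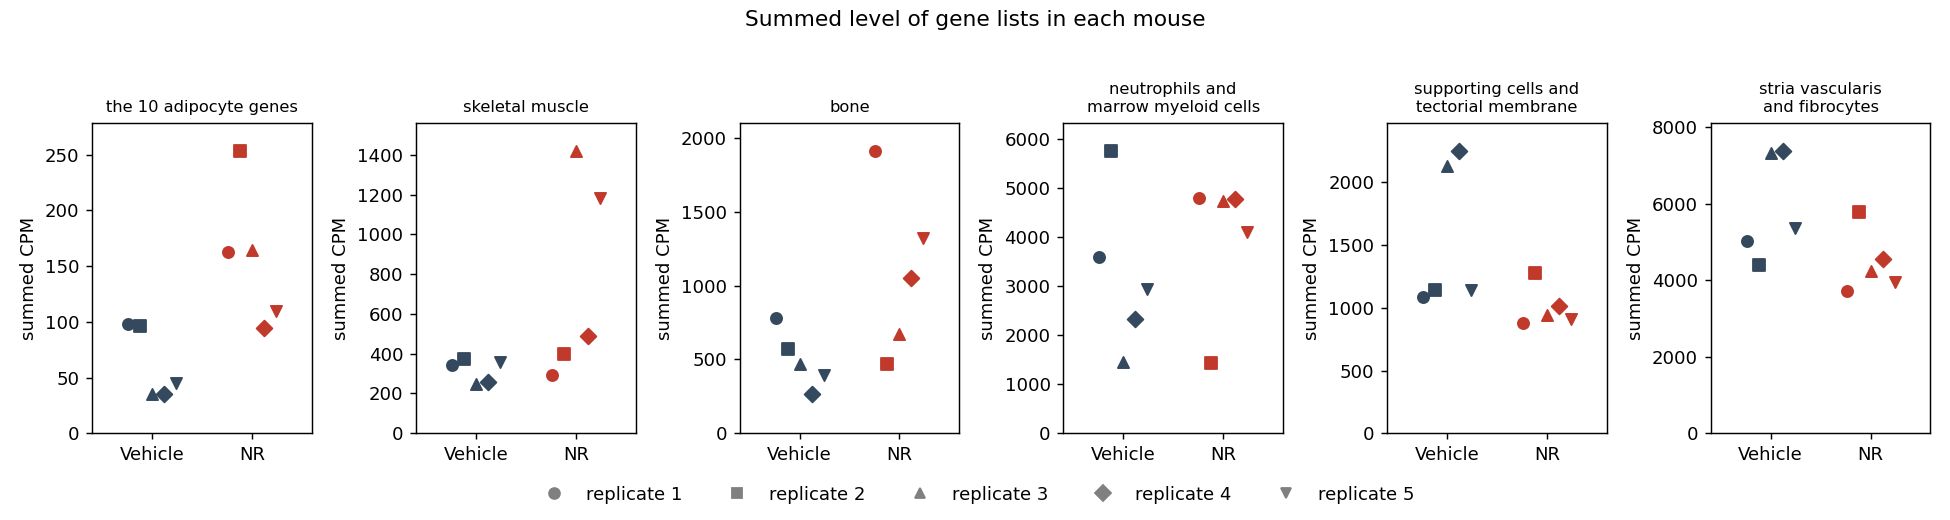
Summed CPM of the 10 adipocyte genes and of 5 marker lists in each mouse, with 1 point per mouse and the symbol giving the replicate number (linear y axes from 0, a separate range for each list). The adipocyte sum is highest in NR replicate 2, the muscle sum (Pvalb included) in NR replicates 3 and 5, and the supporting cell sum in Vehicle replicates 3 and 4.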

How the data were processed

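RNA-seq libraries of the cochlea of 10 mtKeima mice, 5 in the NR group and 5 in the Vehicle group, were analysed, and the groups came from the sample labels. The authors deposited raw read counts per gene, 1 file per mouse, without normalization. The labels name CASAVA, fastp, STAR 2.6.1d, featureCounts 1.5.0, DESeq2 1.26.0 and the mm10 build, and per the methods the counting used default settings, which ignore strand. The reads were not analysed here.

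Counts were tested here with edgeR 4.0.16 (TMM, filterByExpr, glmQLFit and glmQLFTest, two-sided, no covariate) in R 4.3.3, and adjusted p-values are Benjamini-Hochberg values over every gene of a fit. DESeq2 1.42.0 was an alternative. The SE given with edgeR values is the absolute log2 fold change divided by the square root of the F statistic of its test. For DESeq2 it is the SE that this tool reports. Totals of 17060379 to 24419230 reads per mouse set the precision, and limits for a count of 0 use 3 reads. CPM used TMM-scaled library sizes, and log2 CPM a prior count of 2. Mice of a group varied with a common biological coefficient of variation of 0.207. P-values set the group difference against the spread between these mice, which is estimated with information shared over genes. The scripts were tested on simulated data. The other alternatives were another scaling, other filters, robust dispersions, a block for the replicate number, and each mouse left out in turn. Replicate numbers were compared by the correlation of deviations from group means.

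The genes and lists were chosen with earlier results of these data known. Named are the 10 genes, and from each list the most counted tested gene and up to 3 genes with the largest change at an unadjusted p of 0.05, plus Pparg, Plin1 and Cidec, which the study names, and the 5 genes most correlated with the 10, of which 1 is not reported here. Itih5, Fabp6, Fabp9, the sex genes and Gm45470 were named outside this rule after their values were seen. Gene coordinates and exonic lengths are those of the deposited files, overlaps of exons were taken from GENCODE M21, and promoters from RefSeq GRCm38.p6. Figures used python 3.11.15 and matplotlib 3.10.9.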

Additional observations from a re-analysis of the deposited data

Results flagged for a closer look

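In 3 of 20 gene-by-group sets of 5 mice, 1 mouse lay far from the others by Dixon's criterion. Chance alone meets it in about 1 of 20 sets of independent, normally distributed values. The sets here were CPM of genes in the same mice, so that rate cannot be set against the 3 found. All 3 were NR replicate 2. Its Pck1 level was 24.9 CPM, where the next NR mouse had 5.24 CPM. Its Aqp7 level was 6.35 CPM, where the next had 1.47 CPM. Its Ucp1 level was 3.85 CPM, where the next had 0.173 CPM.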

How the results depend on the processing

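No alternative turned the direction of any of the 10 genes. DESeq2 called 51 genes higher and 52 lower after adjustment, 3 of them among the 10, where edgeR called 0. Without a filter on low counts 1414 genes were higher at the unadjusted threshold, and so were 9 of the 10 adipocyte genes, Adipoq being the exception. With at least 1 CPM in at least 5 mice, 5 of the genes were tested and 4 were higher. Leaving out 1 mouse at a time gave 669 to 1414 higher and 484 to 1059 lower genes, the extremes of the former without NR replicate 3 and NR replicate 2, 0 to 1 genes higher after adjustment (1 without NR replicate 2), and 7 to 8 higher of the 8 adipocyte genes (8 without Vehicle replicate 1). Without NR replicate 1 and Vehicle replicate 3 the lower genes numbered 521 and 558. With the replicate number as a block, 879 genes were higher and 776 lower, 7 of the 8 genes were higher and 0 passed after adjustment. Between mice of the same number the correlations of deviations ran from -0.22 to 0.17, and only replicate 1 matched its own number best. The block lowered the SE of some of the genes, such as Lpl (0.34 to 0.109), and raised that of others, such as Retn (0.535 to 0.593). With 5 mice per group these values cannot settle whether the number paired mice. Ucp1 lost its call with the block (log2 fold change 2.28, edgeR adjusted p = 0.853) and without NR replicate 2, and no other of the 10 lost one. DESeq2 gave Ucp1 a log2 fold change of 3.56 (SE 1.22) and no p. The adjusted p of Lep was 0.0374 in DESeq2 without a filter, within a range of 0.0374 to 0.734 over its alternatives. Ranges of adjusted p over the alternatives were 3e-06 to 0.617 for Cfd, 1.18e-04 to 0.751 for Pck1 and 0.0183 to 0.751 for Adrb3. Counts of 0 to 41 reads limit Lep, and 8 reads in the whole Vehicle group limit Ucp1.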

Other observations

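Tusc5 (Trarg1), a gene of insulin-regulated glucose transport in fat, was chosen after its values were seen. It stood at 47.6, 5.73, 50.5, 16.5 and 57.2 CPM in NR replicates 1 to 5 and at 49.5, 2.65, 2.35, 2.95 and 3.16 CPM in Vehicle replicates 1 to 5. Its log2 fold change was 1.56 and did not pass the unadjusted threshold in edgeR. NR replicate 2, the highest mouse for 7 of the 10 adipocyte genes, was the lowest NR mouse for Tusc5, and Vehicle replicate 1 was as high as NR replicates 1, 3 and 5.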
